A study of Mus musculus with 8 samples.

Results

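Follistatin-like 1 (FSTL1) is a secreted glycoprotein, and several cell surface proteins have been proposed to receive it. The 10 genes described here encode the proposed receptors of the DIP2 family (Dip2a, Dip2b and Dip2c), the lipopolysaccharide receptor complex (Tlr4, Cd14 and Ly96) and the first intracellular proteins of that complex (Myd88, Ticam1, Irak4 and Irak1). They were picked out by gene symbol, and all 10 were found among the 22013 genes of the count table. The question was which of the proposed receptors RAW264.7 cells transcribed, and whether their transcripts differed after FSTL1. RAW264.7 is a mouse macrophage line established from a virus-induced tumor. RNA-seq was done on 4 libraries of cells given PBS (the PBS group) and on 4 libraries of cells given recombinant FSTL1 at 100 ng/mL for 24 h (the rFSTL1 group). Both groups were the same cell line, and no gene was deleted or overexpressed in either, as far as the labels state. The labels do not say whether the libraries came from separate cultures, so the p-values measure the spread between these libraries, which may be technical.

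DIP2A was described as a surface receptor for FSTL1 in cells of the vessel wall and the heart, and the 3 DIP2 proteins share adenylate-forming domains related to those of acyl-CoA synthetases. TLR4 sits in the plasma membrane with MD-2, the product of Ly96, and CD14 hands lipopolysaccharide to this pair. From TLR4 the signal runs along one arm through MyD88, IRAK4 and IRAK1 to NF-κB, and along another from endosomes through TRIF, the product of Ticam1, to IRF3 and type I interferon.

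The 3 Dip2 genes are paralogs, and their separate values depend on how far short reads can tell them apart. Their coding sequences (GENCODE M21 on GRCm38, with Dip2a on chromosome 10, Dip2b on chromosome 15 and Dip2c on chromosome 13) were 4716, 4722 and 4671 bases long. After alignment, Dip2a matched Dip2b at 70.7% and Dip2c at 71.4% of aligned bases, and Dip2b matched Dip2c at 70.5%. The longest run that any pair shared was the 32 bases of Dip2a and Dip2c shown next, 5′ to 3′, from coding bases 2467 to 2498 of Dip2a.
Dip2a and Dip2c: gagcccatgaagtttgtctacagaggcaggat
The 60 bases around this run are shown for all 3 genes, with the matching stretch of Dip2b. Capitals mark the positions that were not the same in all 3 genes, and the windows begin at coding base 2453 in Dip2a, 2486 in Dip2b and 2438 in Dip2c.
Dip2a: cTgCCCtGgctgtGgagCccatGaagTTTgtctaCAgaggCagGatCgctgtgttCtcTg
Dip2b: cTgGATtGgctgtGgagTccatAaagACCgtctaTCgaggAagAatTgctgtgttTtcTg
Dip2c: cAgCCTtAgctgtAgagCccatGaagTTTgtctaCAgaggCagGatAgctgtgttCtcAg
Of these 60 bases, 42 were the same in the 3 genes, and Dip2b differed from Dip2a at 14 positions and Dip2c from Dip2a at 6. No stretch of 50 coding bases was shared by any pair. The deposited counts of the 3 Dip2 genes were whole numbers in all 8 libraries.

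Library totals were 15183118 to 20234477 counts in the PBS group and 15062023 to 19260960 in the rFSTL1 group. The 9 macrophage markers checked were all detected, led by Csf1r, Lyz2 and Cd68, and their summed level was 4214 to 4364 CPM (counts scaled to the library total) in the PBS group and 4250 to 4451 in the rFSTL1 group. Adgre1, which encodes F4/80, was low for a macrophage marker, at a mean of 3.43 CPM in the PBS group. The 3 T cell markers had no count in any library, and each of the B cell, fibroblast, epithelial and endothelial marker lists summed to at most 0.869 CPM in a library. Of 10748 genes tested, 37 passed the threshold, an adjusted p under 0.05 (edgeR, quasi-likelihood F test, Benjamini-Hochberg).

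All 10 genes were transcribed in PBS-treated RAW264.7 cells, and Cd14 stood far above the others. Levels between genes were compared as CPM per kilobase of the gene's longest annotated transcript, so that long genes such as Dip2b are not counted as high for their length alone. Cd14 reached 494 ± 14.1 CPM per kilobase (SD, n = 4) in the PBS group, above 99.1% of the 10719 tested genes with a length. Tlr4 had 21.6 ± 1.14 and was above 70.8% of these genes, while Ly96 had 10.5 ± 0.934 and was above 48.7%. The receptor complex spanned a wide range of transcript levels, with Cd14 at 22.9 ± 1.53 times the level of Tlr4, and Tlr4 at 2.07 ± 0.227 times the level of Ly96 (SD, n = 4).

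The DIP2 family was lower. Dip2b, the highest of the 3, had 8.36 ± 0.723 CPM per kilobase (SD, n = 4) in the PBS group, Dip2c had 6.13 ± 0.222 and Dip2a had 5.55 ± 0.167. These values stood above 41.7%, 33.4% and 31.0% of the tested genes. On this scale each Dip2 gene was below the median of 11.0 CPM per kilobase of longest transcript. Per kilobase of coding sequence Dip2b had 15.8, Dip2c 10.5 and Dip2a 7.71, and no median was computed on that scale. Dip2a, the member best known as an FSTL1 receptor, made up 27.7% ± 1.34 of the summed Dip2 level, Dip2b 41.7% ± 2.19 and Dip2c 30.6% ± 0.966 (SD, n = 4). The summed Dip2 level of 20.04 ± 0.808 CPM per kilobase was close to that of Tlr4 alone. In single PBS libraries the log2 ratio of Tlr4 to summed Dip2 was 0.03, 0.22, 0.16 and 0.03, so on this scale Tlr4 was the higher in each by a small margin. Per kilobase of coding sequence this log2 ratio was -0.04, 0.17, 0.10 and -0.04, and Tlr4 was the higher in 2 of 4 libraries. Per kilobase of longest transcript, the log2 ratio in the rFSTL1 libraries was 0.11, 0.05, -0.09 and -0.34, and the sign differed between libraries.

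Among the intracellular proteins, Myd88 was the highest at 27.8 ± 1.36 CPM per kilobase (SD, n = 4) in the PBS group, followed by Irak1 at 17.4 ± 0.499. The adaptor Ticam1, had 5.74 ± 0.316, and Irak4, the kinase that acts first after MyD88, had 5.50 ± 0.154. The level of Myd88 was 4.85 ± 0.412 times that of Ticam1 in the PBS group and 4.31 ± 0.329 times in the rFSTL1 group, with overlapping ranges. In order of level, the 10 genes were Cd14, Myd88, Tlr4, Irak1, Ly96, Dip2b, Dip2c, Ticam1, Dip2a and Irak4. From Cd14 down to Dip2c, the PBS libraries of each gene did not overlap with those of the next, although Myd88 was 1.28-fold above Tlr4 and Tlr4 1.24-fold above Irak1. Below that, Dip2c overlapped with Ticam1, Ticam1 with Dip2a and Dip2a with Irak4, at ratios of 1.07 or less, so these neighbours could not be ordered, although each PBS library of Dip2c was above those of Dip2a and Irak4.

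**Figure D1:**
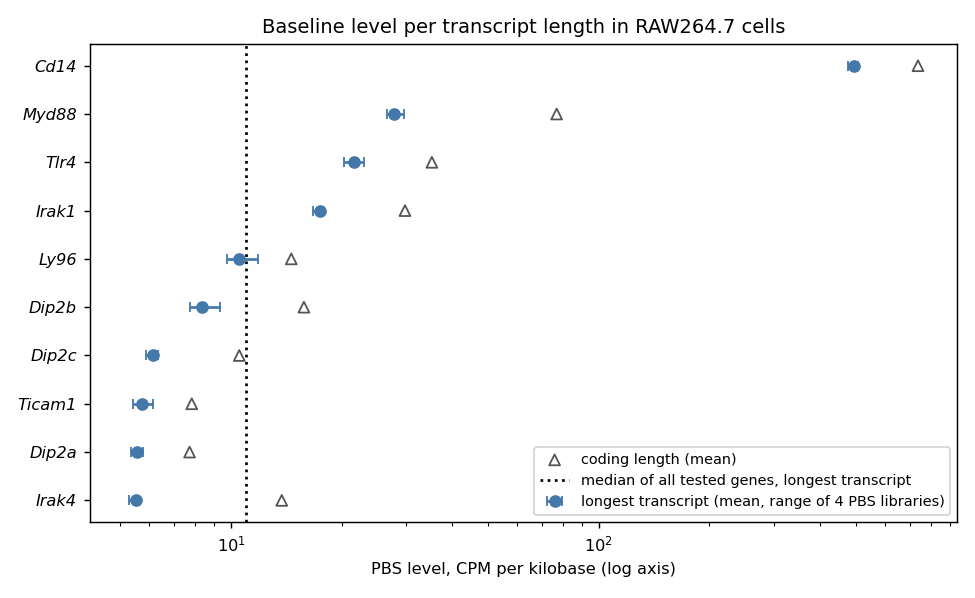
Levels of the 10 genes in the 4 PBS libraries, in CPM per kilobase of longest transcript on a log axis. Points are means and bars are the range of the 4 libraries. Triangles are means per kilobase of coding sequence, and the dotted line is the median of all tested genes per kilobase of longest transcript. Per kilobase of longest transcript Cd14 lies at 494, apart from Myd88 at 27.8, and the 3 Dip2 genes lie below the median of 11.0. The triangle of Dip2b lies at 15.8, and the dotted line is not a median on the coding scale.

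The choice of length changed part of this order. Per kilobase of coding sequence, Cd14, Myd88, Tlr4 and Irak1 were again the first 4 in that order, while Dip2b passed Ly96 and Irak4 rose to rank 7. On that scale Myd88 was 2.18-fold above Tlr4 and 9.85 ± 0.837 times the level of Ticam1 (SD, n = 4). Myd88 and Irak4 share exon bases with a gene on the opposite strand that was also counted. For Myd88 this gene was Acaa1a, over 11.3% of its exon bases, and for Irak4 it was Twf1, over 7.87%. How the authors' counting used strand is not given in the sources used here, so reads from these stretches cannot be told apart. Irak4 was the only member with fractional counts (any deposited decimal part, with no tolerance) in all 8 libraries, and Myd88 had a fractional count in 1 library.

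None of the 10 genes passed the threshold between rFSTL1 and PBS. The share of all tested genes that passed was 0.344% and 0.326% passed as higher, so 0 of 10 does not set the members apart from other genes. DESeq2 called 0 of the 9 members to which it gave an adjusted p (Ly96 had none), and limma voom with sample quality weights called 0 of 10. At an unadjusted p under 0.05 edgeR found 1 of 10, Cd14, where the share over all genes was 15.9%. In 1 of 10, again Cd14, the groups did not overlap, against 8.16% of all tested genes. Which members had an unadjusted edgeR p under 0.05 changed with the fit. With a trend over transcript length and GC content removed they were Dip2c (0.0454), Myd88 (0.018) and Irak1 (0.0398), beside 1353 of 10719 genes, and Cd14 had 0.439. With all genes of at least 1 count Tlr4 had 0.0364 and Cd14 0.0732. The log2 fold change was above 0 for 7 members and below 0 for 3, with a median of 0.05 beside 0.0058 over all genes tested. In these bulk samples, fewer cells that transcribe a gene and less of its RNA per cell cannot be told apart.

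Within the DIP2 family, Dip2a had 35.0, 37.6, 36.4 and 36.5 CPM in PBS libraries 1 to 4 and 40.2, 35.5, 34.5 and 40.0 CPM in rFSTL1 libraries 1 to 4. The groups overlapped, with both the highest and the lowest value in the rFSTL1 group. The log2 fold change of Dip2a was 0.04 ± 0.06 (SE), with a 95% interval from -0.09 to 0.18 and an adjusted p of 0.767 (edgeR, Benjamini-Hochberg). It ranged from 0.0048 without rFSTL1 replicate 1 to 0.08 without rFSTL1 replicate 3, and was 8.6e-05 by weighted limma voom. Dip2b, the most abundant of the family, had 75.8, 68.9, 70.3 and 83.1 CPM in the PBS libraries and 67.5, 75.7, 75.3 and 79.6 CPM in the rFSTL1 libraries. The group means of Dip2b were 74.5 ± 6.45 and 74.5 ± 5.08 CPM (SD, n = 4), and the 95% interval of its log2 fold change ran from -0.13 to 0.14. Dip2c had 48.3, 50.8, 47.1 and 50.5 CPM in the PBS libraries and 54.9, 47.8, 51.4 and 55.6 CPM in the rFSTL1 libraries. Of the rFSTL1 libraries of Dip2c, 3 were above every PBS library and the other lay within their range. Its log2 fold change was 0.09 ± 0.06 (SE), with a 95% interval from -0.03 to 0.22 and an adjusted p of 0.451 (edgeR, Benjamini-Hochberg). The share of Dip2a in the summed Dip2 level was 27.7% in the PBS group and 27.8% in the rFSTL1 group, so the makeup of the family was close in both.

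Cd14, the co-receptor that carries lipopolysaccharide to TLR4, had 834, 821, 807 and 780 CPM in the PBS libraries and 849, 886, 857 and 844 CPM in the rFSTL1 libraries. Every rFSTL1 library was above every PBS library, by a small step from 834 to 844 CPM. The log2 fold change of Cd14 was 0.08 ± 0.04 (SE), with a 95% interval from 0.0037 to 0.16. Its unadjusted p was 0.0414 and its adjusted p 0.293 (edgeR, Benjamini-Hochberg), so it did not pass. An exact two-sided permutation test on log2(CPM + 1) of Cd14 gave p = 0.0286, the smallest that 4 against 4 libraries allow. Over the 35 assignments with 1 library left out, the exact p was 0.0286 without any 1 PBS library and 0.0571 without any 1 rFSTL1 library, and the groups did not overlap in either case. After removal of a trend over transcript length and GC content the log2 fold change was 0.02.

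Tlr4, the signalling receptor, had 82.6, 94.0, 87.8 and 88.0 CPM in the PBS libraries and 90.3, 84.1, 77.0 and 70.8 CPM in the rFSTL1 libraries. In rFSTL1 libraries 3 and 4 Tlr4 was below every PBS library, and in libraries 1 and 2 it was within the PBS range. The group means were 88.1 ± 4.66 and 80.6 ± 8.49 CPM (SD, n = 4), and the log2 fold change was -0.13 ± 0.07 (SE) with a 95% interval from -0.27 to 0.0089. The adjusted p was 0.343 (edgeR, Benjamini-Hochberg), and the exact permutation p was 0.2. The change of Tlr4 was -0.07 without rFSTL1 replicate 4 and -0.20 without rFSTL1 replicate 1, and -0.04 with the trend over length and GC content removed. The ratio of Cd14 to Tlr4 was 25.1, 21.7, 22.8 and 22.0 in the PBS libraries and 23.4, 26.2, 27.6 and 29.6 in the rFSTL1 libraries, so 3 rFSTL1 libraries were above the PBS range and 1 was within it.

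Ly96, which encodes the lipopolysaccharide-binding MD-2, was the least deeply counted member, with 110 to 144 counts in a library. It had 6.68, 6.48, 6.96 and 7.88 CPM in the PBS libraries and 8.22, 7.27, 7.54 and 6.21 CPM in the rFSTL1 libraries. The groups overlapped, and the lowest of all 8 values was in the rFSTL1 group. The log2 fold change was 0.06 ± 0.12 (SE), and its 95% interval from -0.20 to 0.32 was the widest of the 10 members.

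**Figure D2:**
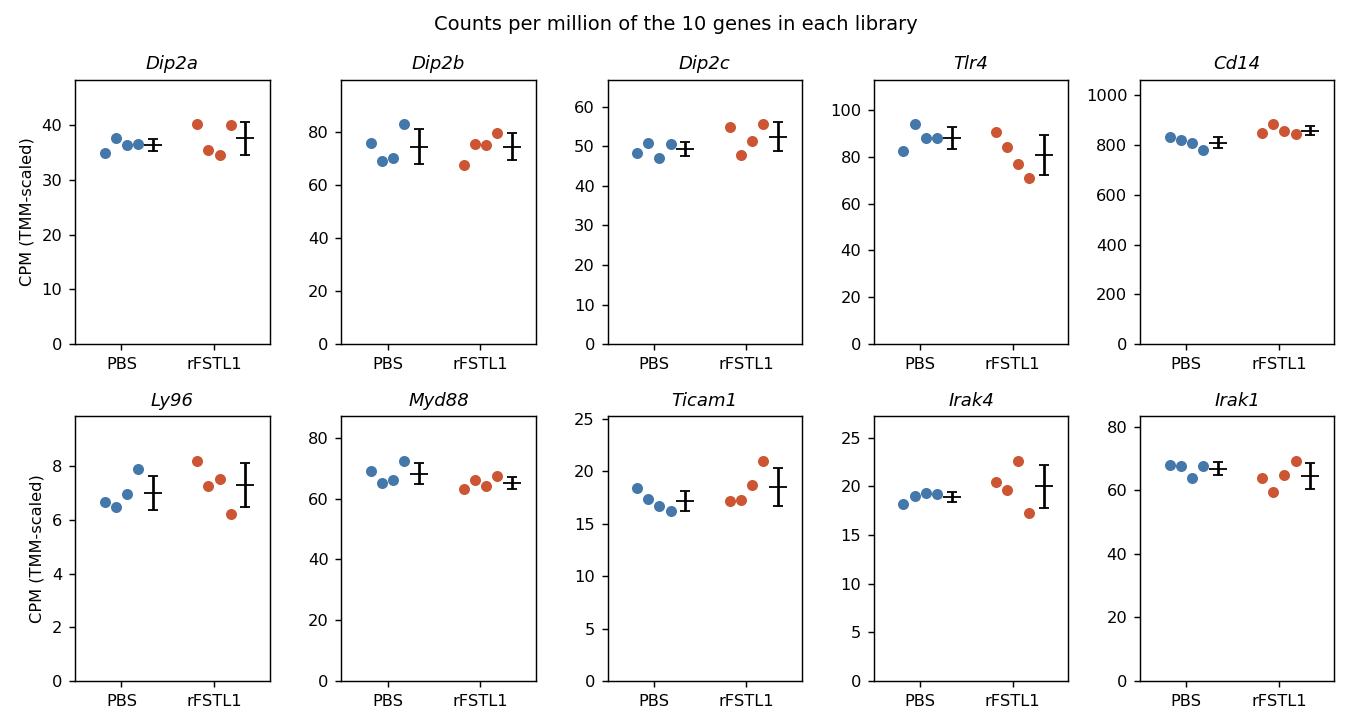
CPM of each of the 10 genes in the 4 PBS and the 4 rFSTL1 libraries, 1 panel per gene with its own axis, points for libraries and a bar for the group mean. Only the Cd14 panel has groups that do not overlap, at 780 to 834 CPM in PBS and 844 to 886 CPM in rFSTL1.

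Downstream of the receptor, Myd88 had 69.1, 65.1, 66.1 and 72.5 CPM in the PBS libraries and 63.1, 66.0, 64.3 and 67.6 CPM in the rFSTL1 libraries. Its groups overlapped, with 2 rFSTL1 libraries below every PBS library. The log2 fold change of Myd88 was -0.06 ± 0.05 (SE) with an adjusted p of 0.561 (edgeR, Benjamini-Hochberg). Ticam1, the adaptor of the interferon arm, had 18.4, 17.4, 16.7 and 16.2 CPM in the PBS libraries and 17.2, 17.2, 18.7 and 21.0 CPM in the rFSTL1 libraries. Its log2 fold change was 0.11 ± 0.09 (SE), which did not pass (adjusted p 0.534, edgeR, Benjamini-Hochberg). It was 0.05 without rFSTL1 replicate 4 and 0.04 with the length and GC trend removed, a fit in which Myd88 was -0.12. Irak4 ranged from 18.2 to 19.3 CPM in the PBS group and from 17.3 to 22.7 CPM in the rFSTL1 group, which held the PBS range within it. Irak1, the kinase that IRAK4 phosphorylates, ranged from 64.0 to 68.0 CPM in the PBS group and from 59.4 to 69.4 CPM in the rFSTL1 group. The log2 fold changes of these kinases were 0.08 (adjusted p 0.680) and -0.05 (adjusted p 0.661) by edgeR with Benjamini-Hochberg adjustment. Irak4 ranged from 0.01 without rFSTL1 replicate 3 to 0.15 without rFSTL1 replicate 4, and Irak1 from -0.09 without rFSTL1 replicate 4 to -0.02 without rFSTL1 replicate 2, on the log2 scale.

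The 10 intervals state how large a change these libraries could still hold. All of them lay between -0.27 and 0.32 on the log2 scale, and outside Ly96 no bound was beyond 0.30. For the 3 Dip2 genes the bounds ran from -0.13 to 0.22.

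**Figure D3:**
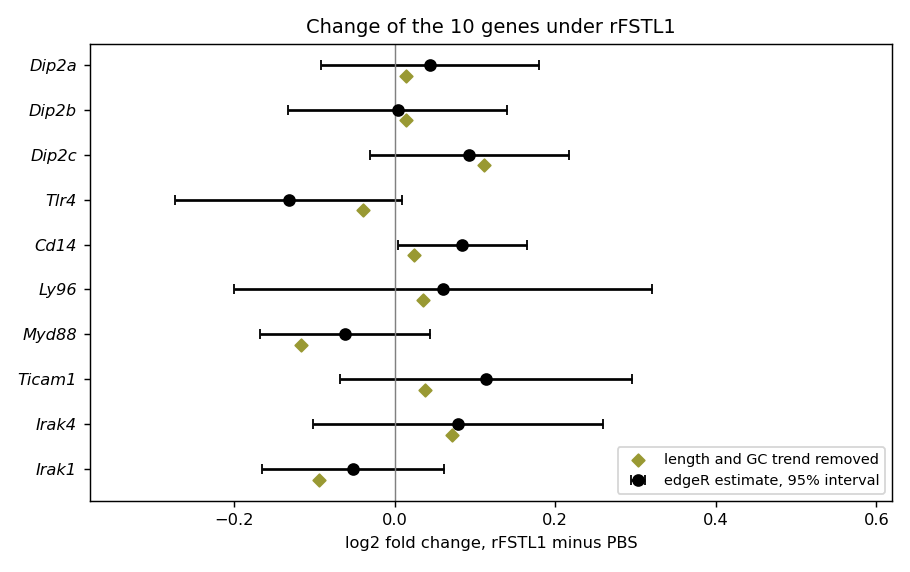
Log2 fold change of rFSTL1 against PBS for the 10 genes, with edgeR estimates as points, 95% intervals as bars, and diamonds for the fit with the trend over transcript length and GC content removed. Only the interval of Cd14, from 0.0037 to 0.16, leaves out 0, and its diamond lies at 0.02.

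Around these receptors, 72 genes of the TLR4 pathway were listed by role, of which 63 were tested. Of these, 3 passed, all higher with rFSTL1, where 0.326% of all tested genes passed as higher. Of the 11 genes that load, hold or move TLR4, 10 were tested, none passed and the median log2 fold change was 0.04. Ly86, which encodes the MD-1 partner of the TLR4-like protein RP105, had the smallest p of these, with a log2 fold change of 0.11 and an adjusted p of 0.291 (edgeR, Benjamini-Hochberg). Next were Cnpy3, a chaperone of Toll-like receptors, at 0.10 (adjusted p 0.447), and Cd180, which encodes RP105 itself, at -0.07 (adjusted p 0.450). Lbp, whose product brings lipopolysaccharide to CD14, had no count in any of the 8 libraries.

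The 20 genes that relay the signal from the receptor to NF-κB, MAP kinases and IRF3 were all tested and none passed, with 8 above 0, 12 below 0 and a median log2 fold change of -0.03. The smallest p-values were those of Chuk, which encodes the kinase IKKα, at -0.14 (adjusted p 0.262), of Map3k7, which encodes TAK1, at -0.10 (adjusted p 0.286), and of the transcription factor Irf3, at 0.14 (adjusted p 0.330; edgeR, Benjamini-Hochberg). With the length and GC trend removed these were -0.07, -0.06 and 0.05, and Cnpy3 was 0.0099. Of the 12 genes that restrain the pathway, 11 were tested and none passed. The median log2 fold change of these brakes was 0.07, and 3 of 11 had an unadjusted p under 0.05, all higher, beside 15.9% of all tested genes in either direction. Sigirr, an inhibitory receptor of the IL-1 receptor family, had 7.53, 7.64, 7.25 and 5.78 CPM in the PBS libraries and 9.22, 8.99, 10.3 and 8.26 CPM in the rFSTL1 libraries. These groups did not overlap, and the log2 fold change of 0.38 ± 0.12 (SE) had an adjusted p of 0.171 by edgeR and 0.0464 by weighted limma voom, both Benjamini-Hochberg. Dusp1, a phosphatase of MAP kinases, had a log2 fold change of 0.54 (adjusted p 0.197), and Tnfaip3, the ubiquitin-editing enzyme A20, had 0.21 (adjusted p 0.243).

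The 3 genes called by edgeR were on the list of MyD88 arm targets, a list written with earlier results of these data known. Of 17 listed targets, 11 were tested and 3 passed as higher, beside 0.326% of all tested genes. All 11 had a log2 fold change above 0, beside 52.0% of all tested genes, with a median of 0.20. The chemokine Ccl3 had 169, 161, 161 and 152 CPM in the PBS libraries and 203, 226, 220 and 196 CPM in the rFSTL1 libraries. The groups did not overlap, and Ccl3 rose by a log2 fold change of 0.40 ± 0.05 (SE, adjusted p 0.00363, edgeR, Benjamini-Hochberg). Its neighbour Ccl4 rose from 51.9 ± 5.24 to 74.2 ± 8.98 CPM (SD, n = 4), which was 0.51 ± 0.08 on the log2 scale (SE, adjusted p 0.0151, edgeR, Benjamini-Hochberg). Nos2, which encodes inducible nitric oxide synthase, rose from 6.41 ± 1.73 to 12.3 ± 2.53 CPM (SD, n = 4), which was 0.93 ± 0.17 on the log2 scale (SE, adjusted p 0.0299, edgeR, Benjamini-Hochberg). The calls of Ccl4 and Nos2 were lost without PBS replicate 3 (adjusted p 0.0522 and 0.115), without PBS replicate 4 (0.0656 and 0.156) or without rFSTL1 replicate 3 (0.0570 and 0.0513), and that of Nos2 also without PBS replicate 2 (0.127). DESeq2 called Ccl3 and Ccl4 and gave Nos2 no adjusted p. As background, Ccl3, Ccl4 and Nos2 also respond to signals other than TLR4. Several classical targets were at or near 0 in both groups. Il12b, Il10 and Cxcl1 had no count in any library, Il6 had at most 2 and Il1b at most 3.

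Of the 12 targets of the TRIF arm, 11 were tested and none passed, with 8 above 0 and a median log2 fold change of 0.14. Irf7, the transcription factor that amplifies type I interferon, had the smallest p, with 31.2, 29.5, 28.8 and 28.6 CPM in the PBS libraries and 33.0, 51.3, 39.0 and 36.5 CPM in the rFSTL1 libraries. Every rFSTL1 library was above the PBS range, and rFSTL1 replicate 2 was far above the other three. The log2 fold change of Irf7 was 0.44 ± 0.10 (SE) with an adjusted p of 0.0789 by edgeR, and the adjusted p was 0.00922 by DESeq2 and 0.0169 by weighted limma voom, all Benjamini-Hochberg. Rsad2, an antiviral protein, had 0.32 (adjusted p 0.382) and the chemokine Ccl5 had 0.33 (adjusted p 0.412) by edgeR. Without rFSTL1 replicate 2 the log2 fold change was 0.29 for Irf7, 0.06 for Rsad2 and 0.16 for Ccl5. Ifnb1, the interferon gene of this arm, had at most 1 count in a library.

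**Figure D4:**
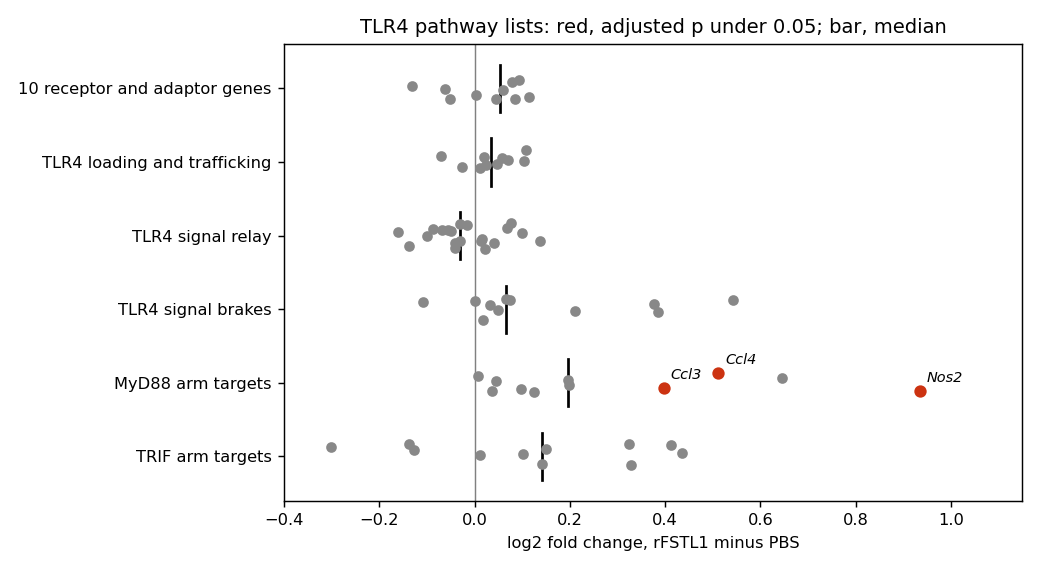
Log2 fold change of rFSTL1 against PBS for the tested genes of 5 TLR4 pathway lists and the 10 genes, with points for genes, red for those with an adjusted p under 0.05 by edgeR and bars for list medians. The 3 red points are Ccl3, Ccl4 and Nos2 among the MyD88 targets, whose median is 0.20, and the receptors and relay proteins lie around 0.

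For reference, other genes linked to FSTL1 binding were read on the same scale. Itga4, the integrin α4 subunit, had 263 ± 11.1 CPM per kilobase in the PBS group (SD, n = 4), which placed it between Cd14 and Myd88. Lamc1, a laminin chain, had 12.5 ± 0.371. Itga4 had 2460, 2547, 2560 and 2721 CPM in the PBS libraries and 2324, 2445, 2031 and 1885 CPM in the rFSTL1 libraries, without overlap. Its log2 fold change of -0.24 did not pass by edgeR (adjusted p 0.115) and passed by DESeq2 (adjusted p 0.0251), both Benjamini-Hochberg. With the length and GC trend removed it was -0.15 (adjusted p 0.0598, edgeR). Lamc1 did not pass by edgeR (log2 fold change 0.05, adjusted p 0.609). Bmp4, a growth factor that FSTL1 binds in the lung, had at most 1 count in a library. Fstl1 itself had at most 4 counts in a library, at the edge of what this depth can detect.

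Genes nearest to Cd14 or Tlr4 over the 8 libraries were found by the root mean square difference of log2(CPM + 1), each gene centred on its own mean. Genes with little spread also score as near by this measure, so it does not show that genes vary together. For Cd14 the nearest were Swi5 (0.0169), Arpc3 (0.022) and Hdgfl2 (0.023), and 4268 of the 10748 tested genes lay within 0.1. For Tlr4 they were Casp8ap2 (0.0235), Tmem30a (0.0238) and Rsbn1l (0.0254), and 1842 genes lay within 0.1. No other member was among these 6 genes.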

How the data were processed

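The authors deposited expected counts (estimated counts) per gene for 8 libraries of poly(A)-selected RNA. Bowtie2 2.2.8, HISAT2, StringTie 1.3.1 and DESeq2 are named in the submitters' processing notes, while the build, the strand setting and the role of each tool are not given in the sources used here. Of the nonzero values 13.0% were not whole (any decimal part, with no tolerance), and all were rounded. Groups and replicate numbers came from the labels. Genes were filtered with filterByExpr (minimum count 10), scaled by TMM and tested with edgeR 4.0.16 (glmQLFit and glmQLFTest, R 4.3.3) with Benjamini-Hochberg adjustment over 10748 genes. Members were also tested by exact two-sided permutation over 70 assignments on log2(CPM + 1). Levels used transcript lengths of GENCODE M21 on GRCm38, found for 99.2% of genes, and coordinates are not given because the authors' build is not stated. Standard errors were computed from the fold change and the F statistic.

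The members and lists were chosen with earlier results of these data known. Named were the 10 members, and of each list the genes that passed, the 3 with the smallest p and those at or under 3 counts throughout, plus the 3 genes nearest to Tlr4 and to Cd14. Il12b, Il10, Cxcl1, Il6, Il1b, Lbp, Ifnb1 and Bmp4 fell under the rule on low counts. Fstl1, at up to 4 counts, and the marker genes were named after their values were seen. Alternatives were limma voom weighted by sample quality (limma 3.58.1), DESeq2 1.42.0, other scalings, no filter on low counts, other lengths, a pseudocount of 0.1, a replicate block and leaving out each library. Removal of a trend over length and GC content and the leave-one-out exact tests were added after results had been seen. A listed gene is not reported here. Scripts were tested on simulated data. Libraries of 1 group differed by more than sampling noise (lowest chi-square per degree of freedom 3.05). Depth was 15062023 to 20234477 counts.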

Additional observations from a re-analysis of the deposited data

Results flagged for a closer look

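In 54 groups of 4 libraries tested for an outlying library, 4 had one past Dixon's 95% critical value, where chance gives about 1 in 20 (2.7 of 54). For Irak1, PBS replicate 3 was low at 64.0 CPM, beside 67.6, 67.8 and 68.0 CPM in the other PBS libraries. For Tnfaip3, PBS replicate 2 was low at 13.3 CPM beside 13.9, 13.9 and 14.0 CPM, and rFSTL1 replicate 1 was low at 14.2 CPM beside 16.4, 16.5 and 16.6 CPM. For Ccl5, PBS replicate 3 was low at 2.91 CPM beside 3.68, 3.76 and 3.76 CPM.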

How the results depend on the processing

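No member passed under any of the alternatives run, while the count over all genes, 37, moved to 195 by DESeq2, 454 by limma voom with sample quality weights, 56 with upper-quartile scaling, 127 with all genes of at least 1 count and 73 with the length and GC trend removed. Leaving out 1 library gave 11 to 99 genes, with 11 without PBS replicate 2, 12 without PBS replicate 3 or 4, 24 without PBS replicate 1, 16 without rFSTL1 replicate 3, 99 without rFSTL1 replicate 1 and 90 without rFSTL1 replicate 2; members called stayed at 0. Of the TLR4 pathway genes 3 passed, 6 by the same weighted limma voom (Sigirr, Cxcl2, Ccl3, Ccl4, Nos2 and Irf7), and 1 to 4 when 1 library was left out. The exact test was run on the 10 members alone and found 1 of them, Cd14. Groups that do not overlap give its smallest p, and 8.16% of all tested genes had such groups. Without 1 library it found 0 to 1 (0 without rFSTL1 replicate 1 or 3, Dip2c without rFSTL1 replicate 2 and Irak4 without rFSTL1 replicate 4). With the replicate block 41 of all genes, 3 pathway genes and 0 members passed. The numbers did not pair the libraries (correlations of deviations -0.0904, 0.0847, -0.0127 and 0.000976). Dip2b changed sign with DESeq2 (log2 -0.0025), with all genes of at least 1 count (-0.0021) and over leaving out 1 library (-0.032 to 0.053). Ly96 ranged from -0.0041 to 0.13. The PBS share of Dip2b was 46.3% by coding length and 40.9% to 42.6% without 1 library, and the log2 ratio of Tlr4 to Dip2, 0.11, was 0.05 by coding length and 0.07 to 0.14 without 1 library. The cause of these shifts was not tested. Ly96, at 110 to 144 counts, had the widest interval of the members.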
